A study of Mus musculus with 23 samples.

Results

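The genes described here are 10 genes of mouse chromosome 9 that lie on either side of Atm, the gene targeted in the study's mice. They are Mpzl2, Bco2, Dlat, 1810046K07Rik, Zc3h12c, Acsbg1, Ireb2, Tspan3, Fam219b and Cyp11a1. They were chosen by their measured RNA levels, which differed between the spleens of mice with and without Atm on the arrays of this series, so the values of that comparison describe how they were chosen and carry no test here. They are 10 of the 18217 genes that have a probe with a matched symbol and are read by 16 of the 41174 probes of the array. All 10 passed the filter on dim probes, as 13743 genes did. Bco2 passed it through the spleens of mice with Atm, and Zc3h12c and Cyp11a1 through the spleens of both genotypes.

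RNA was measured on Agilent one-colour whole mouse genome arrays, 23 arrays of 22 samples. The first group holds 9 B cell lymphoma lines (ATMKO.CD3eKO), cultured in suspension from spleens with tumours, of which line 8 was measured on 2 arrays that were averaged. The second holds 6 spleens without tumour of ATMKO.CD3eKO mice, all female, and the third holds 7 spleens of ATMWT.CD3eKO mice, 4 male and 3 female. All 3 groups therefore lack Cd3e, which belongs to the T cell receptor complex, and all are labelled as C57BL/6 x 129 mixed strain. Ages, the deleted parts of Atm and Cd3e, the number of passages and whether each line came from a separate mouse are not given in the sources used here, so p-values measure the spread between these samples.

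Atm codes for a kinase activated by broken DNA. When a gene is targeted in embryonic stem cells of one mouse strain and the mice are later crossed to another, chromosome segments close to the target are inherited together with it, and a gene there can carry other alleles in knockout than in wild-type animals. Such alleles can change the level of an RNA, and they can also change how well a single array probe binds it, which is why a gene read by several probes is of use. The strain of origin of the region and the probe sequences were not used here, so the part of strain variants in any value below was not tested.

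The data were asked which way each gene differed between the genotypes, whether the lymphoma lines stayed at the level of the knockout spleens, whether probes of a gene gave the same answer, and how the genes between the listed ones behaved. Levels are log2 of the processed signal relative to the array's 75th percentile. A difference of 1 on this scale is a doubling.

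Promoter windows are shown for 3 genes whose levels in the lines differ in kind, and reach from 250 bases before to 50 bases after the gene's start (RefSeq, GRCm38.p6). The table of promoters held windows for 9 of the 10 genes, all but Mpzl2. 1810046K07Rik and Acsbg1 are shown because their windows hold the octamer ATGCAAAT, the element read by POU factors of the Oct family in B cells. The octamer is in capitals on either strand. Both genes reached their highest levels in lymphoma lines, as Mpzl2, Dlat and Ireb2 did on their brightest probes. The windows of Dlat and Ireb2 held no octamer, and the part of the octamer in any level was not tested. Fam219b is shown because all 9 lines lay on the knockout side of every wild-type spleen, with the GC box GGGCGG in capitals.
1810046K07Rik, chr9:51328869-51329168, minus strand: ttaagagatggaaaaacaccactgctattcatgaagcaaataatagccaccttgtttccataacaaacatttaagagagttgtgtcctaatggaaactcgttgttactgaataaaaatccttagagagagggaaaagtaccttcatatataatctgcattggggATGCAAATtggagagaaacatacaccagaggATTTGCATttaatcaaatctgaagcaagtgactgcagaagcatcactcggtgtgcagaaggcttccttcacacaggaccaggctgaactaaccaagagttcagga
Acsbg1, chr9:54661836-54662135, minus strand: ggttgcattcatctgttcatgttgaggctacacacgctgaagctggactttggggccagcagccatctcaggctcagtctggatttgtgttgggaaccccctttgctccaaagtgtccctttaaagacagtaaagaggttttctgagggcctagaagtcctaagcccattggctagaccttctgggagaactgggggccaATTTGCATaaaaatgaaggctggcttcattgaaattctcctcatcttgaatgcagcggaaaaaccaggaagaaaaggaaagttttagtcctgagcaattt
Fam219b, chr9:57537278-57537577, plus strand: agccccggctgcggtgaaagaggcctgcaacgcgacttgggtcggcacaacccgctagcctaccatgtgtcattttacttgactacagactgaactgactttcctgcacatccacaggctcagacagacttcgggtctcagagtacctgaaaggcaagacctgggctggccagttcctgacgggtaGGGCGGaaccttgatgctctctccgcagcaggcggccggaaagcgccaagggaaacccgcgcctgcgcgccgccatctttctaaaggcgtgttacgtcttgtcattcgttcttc

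The first window of 1810046K07Rik held 2 octamers, which began 86 and 55 bases before the start, and its second window held none (0). The Acsbg1 window held 1 octamer, 50 bases before the start. The first octamer of 1810046K07Rik and that of Acsbg1 each overlap a match to CCAAT. Of the 32851 promoter windows of this length, 1.74% held the octamer on either strand and 0.107% held at least 2. No octamer was found in the windows of the other 7 genes, and the E box CACGTG, found in 7.15% of all windows, was in no window of the listed genes (0). The GC box was found in windows of 5 genes (Dlat, Zc3h12c, Ireb2, Fam219b and Cyp11a1) and in 35.7% of all windows. A match describes these letters only.

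The share of spots well above background was lowest for the lines, at 54.9% to 62.3%, beside 62.6% to 67.7% in knockout and 61.7% to 66.9% in wild-type spleens. Of the 6 slides, 1 held lines only. Both Atm probes followed the labels: probe 1 read -0.67 to 0.0026 with Atm intact, -2.69 to -2.07 in spleens without it and -4.38 to -2.77 for the lines, and no group of spleens overlapped the other. The Cd3e probe read -4.63 to -3.96 and -4.65 to -3.86 in the spleens of both genotypes and -3.29 to -1.22 in the lines. Whether any of these probes lies in a deleted part is not known, so they check the labels only as far as they differ. All 8 B cell markers were well above background in every sample, with summed log2 levels of 8.22 to 9.08 in the lines, 8.27 to 8.83 in knockout and 8.32 to 8.89 in wild-type spleens. In the lines, all 7 macrophage, 6 neutrophil, 6 erythroid and 6 NK cell markers were lower than in knockout spleens, under each scaling tried. Of 7 tested T cell markers, 2 were higher in the lines, Cd3g by 7.35 (adjusted p = 2.87e-08) and Cd3d by 2.11 (adjusted p = 0.00512), under each scaling, as Cd3e was by 1.87 (adjusted p = 4.89e-07). The other T cell markers were lower (Cd8a, Thy1, Cd5, Cd28 and Cd4), although Cd4 did not pass under the other scalings and Cd28 not with normexp.

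In the spleens, 4 of the 10 genes were higher in knockout than in wild-type animals and 6 were lower. The largest differences were those of 1810046K07Rik, at 2.23 ± 0.46 (SE of the limma fit with genotype and sex, 6 and 7 spleens), Mpzl2, at 2.15 ± 0.22, and Bco2, at -2.31 ± 0.37. Cyp11a1, at 0.84 ± 0.17, and Zc3h12c, at 0.70 ± 0.16, were also higher. With normexp background correction the Mpzl2 difference was 0.19 and that of Bco2 -1.38. Acsbg1, at -0.90 ± 0.19, Fam219b, at -0.89 ± 0.11, Dlat, at -0.70 ± 0.11, Tspan3, at -0.51 ± 0.08, and Ireb2, at -0.41 ± 0.10, were lower. This comparison chose the genes. Over all 13743 tested genes, 3.82% were called at an adjusted p under 0.05 (1.66% higher and 2.16% lower), and nothing is read from the listed genes against that share. Since all knockout spleens were female, these differences rest on the 3 female wild-type spleens.

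The 2 genotypes did not overlap for 3 of the genes that were higher (Mpzl2, 1810046K07Rik, Zc3h12c) and 4 that were lower (Bco2, Dlat, Tspan3, Fam219b), where 4.35% of all tested genes did not overlap (2.26% higher and 2.09% lower). The ranges of Acsbg1, Ireb2 and Cyp11a1 overlapped. None of the 10 genes was called between female and male spleens, a comparison with 0.691% of all genes called. It rests on 4 male and 3 female wild-type spleens. The 95% interval left out 0 for Zc3h12c (0.48, 0.11 to 0.86), Acsbg1 (0.48, 0.03 to 0.94), Tspan3 (0.26, 0.07 to 0.45) and Cyp11a1 (-0.54, -0.95 to -0.14). For the other listed genes it held 0. The lack of a call is therefore not read as a lack of a sex difference. On each of the 5 slides that held both genotypes, all 10 genes differed in the direction of the pooled value. The choice of the genes favours this, and sex was not taken into account within slides, so nothing is read from it. Of the markers of other cell types, 4 of 6 NK cell markers were lower in knockout spleens, with a summed level of 5.51 to 6.22 against 6.06 to 6.56 in wild-type spleens, and 1 of 6 stromal and endothelial markers was higher. No other marker of the 9 lists was called (0), and the part of NK cells in the values of the listed genes was not tested. In whole spleens and cultures, fewer cells of a type and less RNA per cell cannot be told apart.

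**Figure D1:**
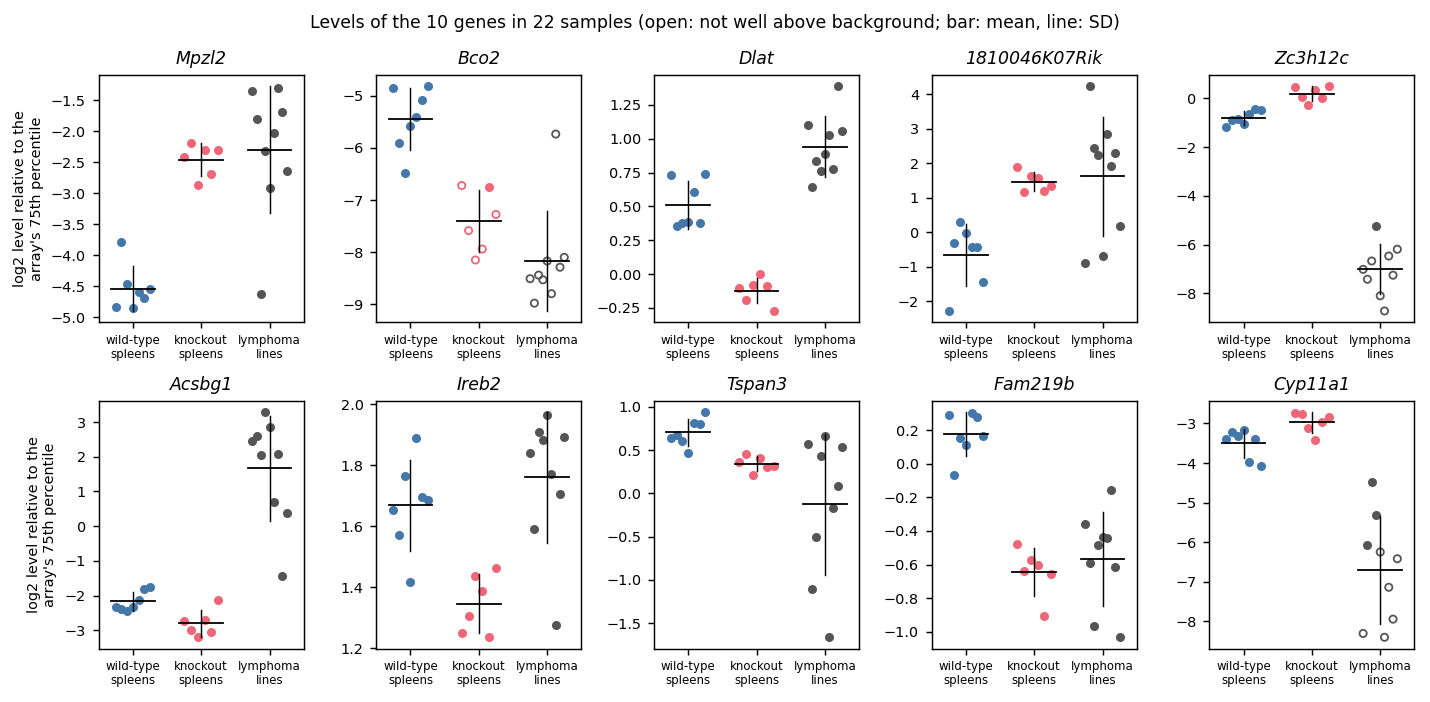
Log2 level of each of the 10 genes (vertical axes, relative to the array's 75th percentile, scales differ between panels) in 7 wild-type spleens, 6 knockout spleens and 9 lymphoma lines, 1 point a sample, with open points for samples not well above background, a bar at the group mean and a line of 1 SD. For Fam219b all 9 lines lie below every wild-type spleen, while for Dlat all 9 lie above every knockout spleen, and for Zc3h12c and Cyp11a1 all 9 lie below every spleen.

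Set against knockout spleens, 3 of the 10 genes were higher in the lymphoma lines (Acsbg1, Dlat, Ireb2), 2 were lower (Zc3h12c, Cyp11a1) and 5 did not pass the test (Mpzl2, Bco2, 1810046K07Rik, Tspan3, Fam219b). Over all tested genes 70.4% were called in this comparison, 41.5% higher and 28.9% lower, so a call here is the usual outcome for a gene. The median difference was 0.11 over the 10 genes and 0.18 over all tested genes. The knockout spleens had a part in choosing the genes, so a difference from them opposite in sign to the genotype difference, as all 5 called genes had, is favoured by the choice and nothing is read from it. Groups did not overlap for 2 higher and 2 lower genes, where 40.9% of all genes did not overlap (24.1% higher and 16.8% lower).

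Set against wild-type spleens, which had a part in choosing the genes, 4 genes were higher in the lines (Mpzl2, 1810046K07Rik, Acsbg1, Dlat), 5 were lower (Bco2, Zc3h12c, Cyp11a1, Tspan3, Fam219b) and Ireb2 did not pass, with 71.3% of all tested genes called (40.4% higher and 30.9% lower). Of the 9 called genes, 5 differed in the direction that the knockout spleens did, which the choice favours in the same way, and 4 in the other. The call of Bco2 is also favoured by the filter, which it passed through the wild-type spleens. Each line lay nearer to the knockout than to the wild-type mean for 3 to 5 of the 10 genes. With each array centred on its median instead of its 75th percentile, the median of all genes moved from 0.18 to 0.77 for the lines against knockout spleens, and the higher genes made up 76.4% of those called in place of 59% (75.1% in place of 56.7% against wild-type spleens, median 0.71). Differences relative to the median of all genes are the same under both.

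**Figure D2:**
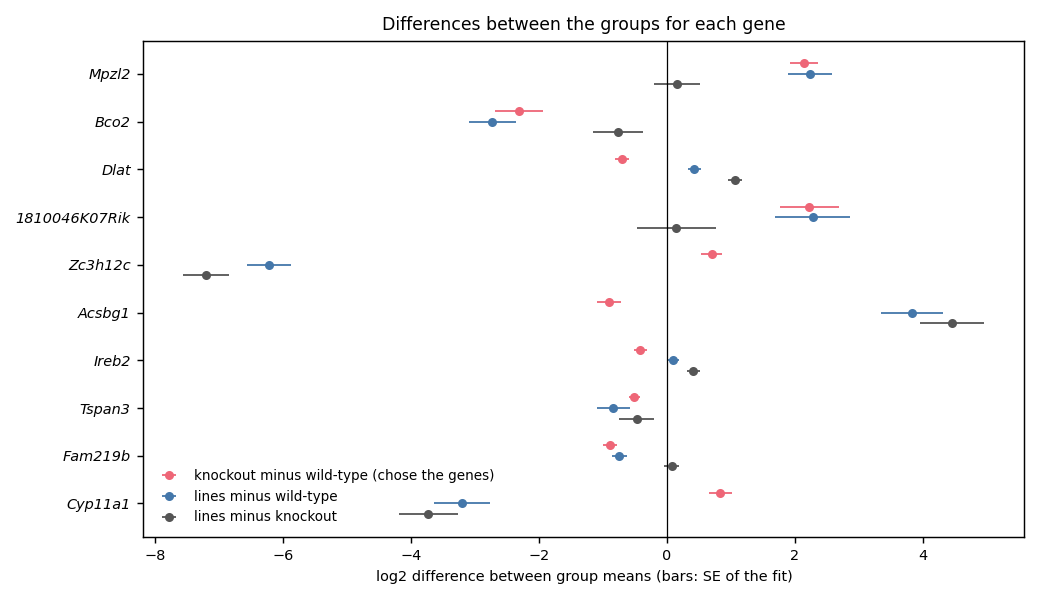
Log2 differences (horizontal axis, bars are the SE of the limma fit) for the 10 genes. Shown are knockout minus wild-type spleens, lines minus wild-type spleens and lines minus knockout spleens. The first comes from the fit with sex and rests on the 3 female wild-type spleens, the second on all 7 wild-type spleens. For Mpzl2, 1810046K07Rik and Fam219b the lines differ from wild-type spleens by about as much as knockout spleens do and their difference from knockout spleens lies near 0, at 0.16, 0.15 and 0.08. For 1810046K07Rik that value averages lines above and below the knockout range, with none inside it. With median centring the differences from knockout spleens were 0.75, 0.74 and 0.66, and that of Fam219b passed (adjusted p = 3.16e-05).

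Mpzl2 encodes a cell adhesion protein of the immunoglobulin superfamily, found in epithelia. Its brighter probe read -4.85 to -3.79 in wild-type spleens (median -4.60), -2.88 to -2.19 in knockout spleens (median -2.36) and -4.62 to -1.30 in the lines (median -2.04). All knockout spleens and 8 of 9 lines were above every wild-type spleen, and line 3, at -4.62, was within the wild-type range. The lines differed from knockout spleens by 0.16 ± 0.36 (adjusted p = 0.701, 95% interval -0.58 to 0.91), a difference of -0.02 once the median of all genes is taken off. They were 4.72-fold higher than wild-type spleens, by 2.24 ± 0.34 (adjusted p = 4.89e-06), and that call was lost with normexp background correction (0.76, adjusted p = 0.059). On slides, the difference from knockout spleens ran from -2.32, on the slide with line 3, to 1.06.

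Tspan3 encodes a tetraspanin, one of the membrane proteins that organise other proteins at the cell surface. Its brighter probe read 0.47 to 0.94 in wild-type spleens (median 0.67), 0.21 to 0.45 in knockout spleens (median 0.34) and -1.66 to 0.66 in the lines (median 0.09). The lines spread 9.48 times as far as the knockout spleens by SD, with 5 of 9 below all spleens, lines 6 (-1.66) and 2 (-1.10) lowest, and 3 within the wild-type range. The difference from knockout spleens was -0.47 ± 0.27 (adjusted p = 0.13, 95% interval -1.04 to 0.10), and it passed with slide as a term (-0.73, adjusted p = 0.0218). Against wild-type spleens Tspan3 was lower by -0.83 ± 0.26 (adjusted p = 0.00732), a call that was lost with median centring (-0.26, adjusted p = 0.376).

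1810046K07Rik is the mouse counterpart of POU2AF2, a coactivator of POU transcription factors known from tuft cells. Its single probe read -2.28 to 0.29 in wild-type spleens (median -0.42), 1.16 to 1.88 in knockout spleens (median 1.46) and -0.90 to 4.24 in the lines (median 2.25). None of the lines was within the knockout range: 6 were above all spleens and lines 1 (-0.90), 5 (-0.70) and 9 (0.17) were within the wild-type range. The mean difference from knockout spleens, 0.15 ± 0.62 (adjusted p = 0.842, 95% interval -1.14 to 1.44), therefore averages lines on both sides and cannot tell a kept level from a wide spread, the SD of the lines being 6.22 times that of knockout spleens. Its sign changed with quantile normalisation (-0.032) and without line 2 (-0.18) or line 6 (-0.0031). Against wild-type spleens the gene was higher by 2.28 ± 0.59 (adjusted p = 0.00163), and higher on each of 5 slides, by 0.46 to 4.57.

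Zc3h12c encodes a member of the Regnase family of RNA-degrading proteins. It read -1.20 to -0.45 in wild-type spleens (median -0.87) and -0.26 to 0.51 in knockout spleens (median 0.19), all well above background. In the lines it read -8.73 to -5.25 (median -7.02) and was well above background in line 4 alone of 9. All lines were below all spleens. With each line raised to at least the lowest level well above background on its array, the lines were at least 76.7-fold lower than knockout spleens (fitted difference -7.20 ± 0.36, adjusted p = 9.56e-14) and at least 38.9-fold lower than wild-type spleens (-6.22 ± 0.34, adjusted p = 4.72e-13). These bounds hold for the processed signal: with normexp the differences were -3.33 (adjusted p = 6.74e-10) and -2.55 (adjusted p = 1.62e-08). The summed level of macrophage markers was 5.39 to 6.16 in knockout spleens, and in the lines -1.85 to 4.12, with 7 of 7 markers lower and each above background in at least 1 line, and their part in the fall of Zc3h12c was not tested.

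Ireb2 encodes iron regulatory protein 2, which binds RNAs of iron uptake and storage genes when iron is scarce. Its brightest probe read 1.42 to 1.89 in wild-type spleens (median 1.69), 1.24 to 1.46 in knockout spleens (median 1.35) and 1.28 to 1.96 in the lines (median 1.84). Of the lines, 8 were above every knockout spleen and only line 7 (1.28) was within their range. On this probe Ireb2 was 1.33-fold higher in the lines than in knockout spleens (0.41 ± 0.10, adjusted p = 0.000809) and differed from wild-type spleens by 0.09 ± 0.09 (adjusted p = 0.395, 95% interval -0.10 to 0.29). With median centring it was higher than wild-type spleens as well (0.66, adjusted p = 0.000191), and with quantile normalisation that difference was -0.12 (adjusted p = 0.215). The difference from knockout spleens is favoured by the choice of the genes, and nothing is read from it. Probe 2 gave 0.08 for it (adjusted p over all probes = 0.686).

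Dlat encodes the E2 subunit of the pyruvate dehydrogenase complex, which turns pyruvate into acetyl-CoA in mitochondria. Its brighter probe read 0.35 to 0.74 in wild-type spleens (median 0.39), -0.27 to 0.0012 in knockout spleens (median -0.09) and 0.64 to 1.39 in the lines (median 0.89). All 9 lines were above every knockout spleen and 8 were above every spleen. On this probe the lines were 2.09-fold higher than knockout spleens (1.06 ± 0.11, adjusted p = 1.01e-08) and 1.35-fold higher than wild-type spleens (0.43 ± 0.10, adjusted p = 0.000611). Within the 5 slides the first difference was 0.78 to 1.21. The choice of the genes favours that difference, and nothing is read from it.

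Bco2 encodes the mitochondrial enzyme that cleaves carotenoids off centre. It read -6.47 to -4.81 in wild-type spleens (median -5.41), well above background in all 7, -8.15 to -6.72 in knockout spleens (median -7.43), above background in 1 of 6, and -8.98 to -5.73 in the lines (median -8.44), above background in none of 9 (0). Wild-type spleens were therefore the only group measured above background throughout. The lines were at least 1.68-fold lower than wild-type spleens (fitted difference -2.73 ± 0.37, adjusted p = 9.63e-07), a call lost with normexp (-0.74, adjusted p = 0.142). Bco2 passed the filter on dim probes through the wild-type spleens, which also had a part in choosing it. A lower level in the lines is therefore favoured, and nothing is read from this test. No fold is given between lines and knockout spleens, both below background, and nothing is read from the tests between them. Their fitted difference, -0.77 (adjusted p = 0.0835), passed without line 7 (-1.07, adjusted p = 0.0011), with quantile normalisation (-0.87, adjusted p = 0.0148) and with slide as a term (-1.28, adjusted p = 0.00692), and was 0.45 with normexp (adjusted p = 0.407).

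Acsbg1 encodes an acyl-CoA synthetase of the bubblegum family, which activates long-chain fatty acids. It read -2.44 to -1.75 in wild-type spleens (median -2.33), -3.20 to -2.12 in knockout spleens (median -2.85) and -1.44 to 3.29 in the lines (median 2.08). Every line was above every spleen, line 8 by the least (-1.44). The lines were 22-fold higher than knockout spleens (4.46 ± 0.51, adjusted p = 8.13e-08) and 14.3-fold higher than wild-type spleens (3.83 ± 0.48, adjusted p = 3.32e-07), in the direction opposite to the genotype difference. Within slides the difference from knockout spleens was 3.75 to 5.69.

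Cyp11a1 encodes the mitochondrial side-chain cleavage enzyme that starts steroid synthesis from cholesterol. Its brighter probe read -4.08 to -3.16 in wild-type spleens (median -3.38), -3.42 to -2.73 in knockout spleens (median -2.90) and -8.40 to -4.47 in the lines (median -6.42). It was well above background in every spleen and in lines 2, 3 and 4, and all lines were below all spleens. The lines were at least 6.94-fold lower than knockout spleens (fitted difference -3.73 ± 0.46, adjusted p = 2.81e-07) and at least 4.81-fold lower than wild-type spleens (-3.20 ± 0.44, adjusted p = 1.13e-06). These bounds hold for the processed signal only. With normexp the difference from knockout spleens was -0.52 (adjusted p = 0.268) and that from wild-type spleens -1.02 (adjusted p = 0.0189). The genotype difference of 0.84 became -0.54 with normexp.

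The last gene, Fam219b, has no role given here. Its single probe read -0.07 to 0.30 in wild-type spleens (median 0.17), -0.91 to -0.48 in knockout spleens (median -0.62) and -1.03 to -0.16 in the lines (median -0.49). All 9 lines and all 6 knockout spleens were below all 7 wild-type spleens. No other listed gene had all lines beyond the wild-type range on the side of the knockout spleens, a side that the choice of the genes favours. Over all genes, lines and wild-type spleens did not overlap for 41.8%, counting higher and lower together. The difference between lines and knockout spleens was 0.08 ± 0.12 (adjusted p = 0.567, 95% interval -0.16 to 0.32), and the difference was -0.10 relative to the median of all genes. Against wild-type spleens it was -0.74 ± 0.11 (adjusted p = 3.78e-06), and -0.52 to -1.13 within each of 5 slides. These calls depend on the scaling: with median centring the lines were above knockout spleens (0.66, adjusted p = 3.16e-05) and did not pass against wild-type spleens (-0.17, adjusted p = 0.18), while with quantile normalisation they kept their side (0.13, adjusted p = 0.322, and -0.75, adjusted p = 1.89e-06).

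Of the 10 genes, 5 are read by more than 1 probe. For Dlat, probe 1 differed by -0.70 ± 0.12 (SE of the fit over all probes) between knockout and wild-type spleens and probe 2 by 0.14 ± 0.10. For Tspan3 the values were -0.51 ± 0.09 and 0.09 ± 0.17, and for Ireb2 -0.41 ± 0.10, 0.12 ± 0.13 and -0.07 ± 0.18. Between the means of all 6 knockout and 7 wild-type spleens, both sexes included, the differences were -0.63 and 0.15 for Dlat, -0.36 and -0.13 for Tspan3, and -0.32, 0.15 and -0.24 for Ireb2. The second Dlat probe and the second Ireb2 probe thus differed in sign from the first either way. The third Ireb2 probe had the sign of the first either way, although its size depended on the wild-type spleens used. For the second Tspan3 probe the sign itself depended on them. Both probes of Cyp11a1 were higher in knockout spleens, by 0.84 ± 0.18 and 0.74 ± 0.22. The brighter Mpzl2 probe differed by 2.15 ± 0.22 and the dimmer by 0.70 ± 0.62, a value that rests on knockout spleen 6 and was 0.17 without it. Probes of a gene match the same RefSeq transcript, and where on it they lie is not known here.

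The second Dlat probe read -0.02 to 0.37 in wild-type spleens (median 0.16), 0.20 to 0.42 in knockout spleens (median 0.33) and -0.41 to 0.56 in the lines (median 0.34). On it the groups overlapped, and the lines differed from knockout spleens by -0.07 ± 0.12 (adjusted p over all probes = 0.628; 67.8% of tested probes were called). Within each sample, probe 1 minus probe 2 of Dlat was 0.18 to 0.75 in the wild type, -0.57 to -0.32 in the knockout spleens and 0.22 to 1.18 among lines. Knockout spleens thus stood apart from both other groups in the ratio of the probes. The lines exceeded knockout spleens in it by 1.13 and wild-type spleens by 0.34. The low reading of probe 1 in these knockout spleens is what chose the gene, so these differences are given as a description, with no test.

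The second Mpzl2 probe read -6.98 to -6.16 in wild-type spleens, above background in 3 of 7, -6.83 to -3.20 in knockout spleens, and in the lines -6.38 to -3.95. Knockout spleen 6 alone, at -3.20, stood far above the next, at -6.0. Probe 1 minus probe 2 is not compared with wild-type spleens, since most of their probe 2 values were not above background. On probe 2 the lines were at least 2.09-fold higher than wild-type spleens (fitted difference 1.26 ± 0.42, adjusted p over all probes = 0.0101; 69.7% of tested probes were called).

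The probes of Ireb2, Tspan3 and Cyp11a1 gave no pair difference that passed between lines and spleens, with exact permutation p between 0.631 and 0.948 after adjustment over 14 tests of 7 probe pairs. Probes 2 and 3 of Ireb2 read the lines 0.08 ± 0.17 (adjusted p = 0.686) and 0.35 ± 0.14 (adjusted p = 0.0372) above knockout spleens, beside 0.41 on probe 1. Probe 2 of Tspan3 read the lines at -0.49 ± 0.30 (adjusted p = 0.162), beside -0.47 on probe 1, and lines 2 and 6 were lowest on both probes. Probe 2 of Cyp11a1 gave -3.50 ± 0.49 (adjusted p = 1.84e-06), at least 5.58-fold lower on the processed signal, with 4 of 9 lines above background. The spread between lines of Tspan3 and the fall of Cyp11a1 were therefore seen with both probes.

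**Figure D3:**
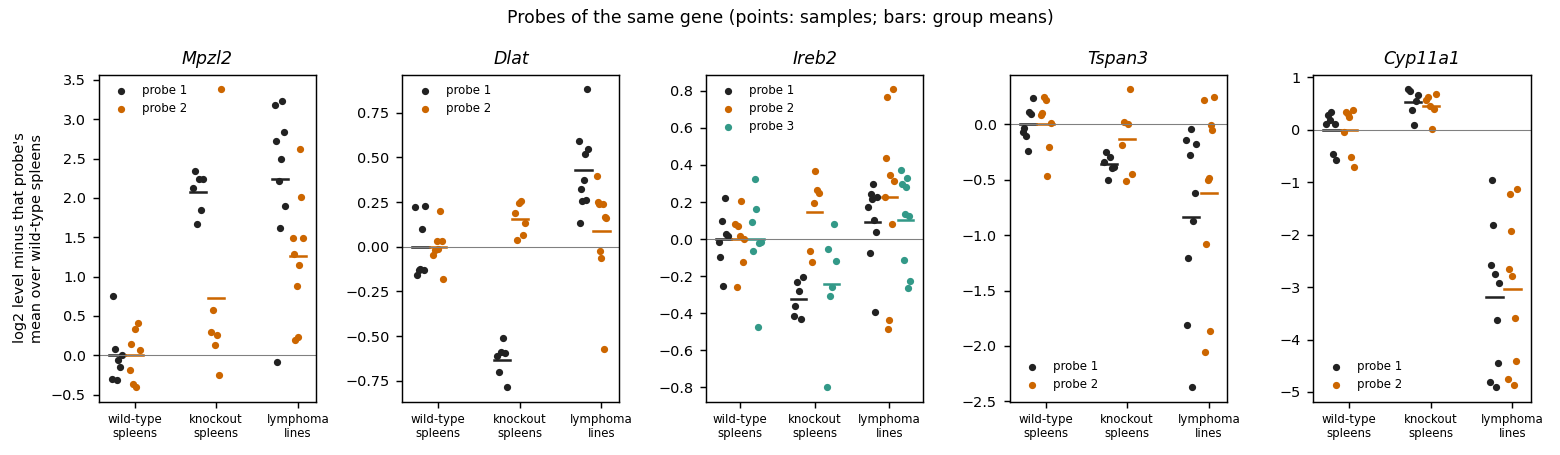
Log2 level minus the same probe's mean over wild-type spleens (vertical axes) for the 5 genes with several probes, with points for samples, bars for group means and colours for probes numbered from the brightest. Dlat probe 1 is low in knockout spleens and high in the lines while probe 2 stays near the wild-type level in both, whereas both Cyp11a1 probes fall together in the lines.

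In the gene order of RefSeq, the stretch from Mpzl2 to Cyp11a1 holds 287 genes, of which 111 were tested. Counted in tested genes from Atm, Zc3h12c is 3 and 1810046K07Rik 7 genes away on one side, followed by Dlat at 16, Bco2 at 22 and Mpzl2 at 57. On the other side lie Acsbg1 at 10, Ireb2 at 13, Tspan3 at 25, Fam219b at 41 and Cyp11a1 at 53. Between genotypes 13 of the 111 were called, 6 higher and 7 lower (11.7%), a share that the choice of the listed genes fixes. Of the 100 that are neither listed nor Atm, 2 were called, both higher in knockout spleens: 1110032A03Rik, at 0.65 ± 0.13 (adjusted p = 0.0167), and 1700017B05Rik, at 0.50 ± 0.12 (adjusted p = 0.0417), named here after their values were seen. That is 2% of them, a share that the removal of the listed genes lowers and that is not compared with other genes. Hspb2, also named after its values were seen, had a difference of 2.27 ± 0.65 that was not called (adjusted p = 0.0762).

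Of the 20 tested genes next to the listed ones on either side, none was called between genotypes (0) and the median difference was 0.06. They are what the choice of shifted genes left, so this count is largely set by that choice. Cd3e, the other targeted gene, is the tested gene directly before Mpzl2 and differed between the genotypes by 0.10 ± 0.18. In the lines, 9 of these neighbours were higher and 6 lower than in knockout spleens, and 8 and 2 with normexp. Il18, a cytokine gene next to Bco2, was lower by -6.35 ± 0.40 (adjusted p = 7.29e-12), and Pstpip1, an actin-binding adaptor next to Tspan3, by -6.45 ± 0.91 (adjusted p = 1.73e-06). Pih1d2 next to Dlat was higher by 1.53 ± 0.25 (adjusted p = 1.36e-05), and Idh3a, a subunit of a mitochondrial isocitrate dehydrogenase beside Acsbg1, by 1.13 ± 0.18 (adjusted p = 8.1e-06). Cox5a and Mpi, on either side of Fam219b, were higher by 0.79 ± 0.08 and 1.08 ± 0.11, while Fam219b itself did not pass. Over the interval 73% of genes were called in this comparison and over the rest of the chromosome 69.2%.

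**Figure D4:**
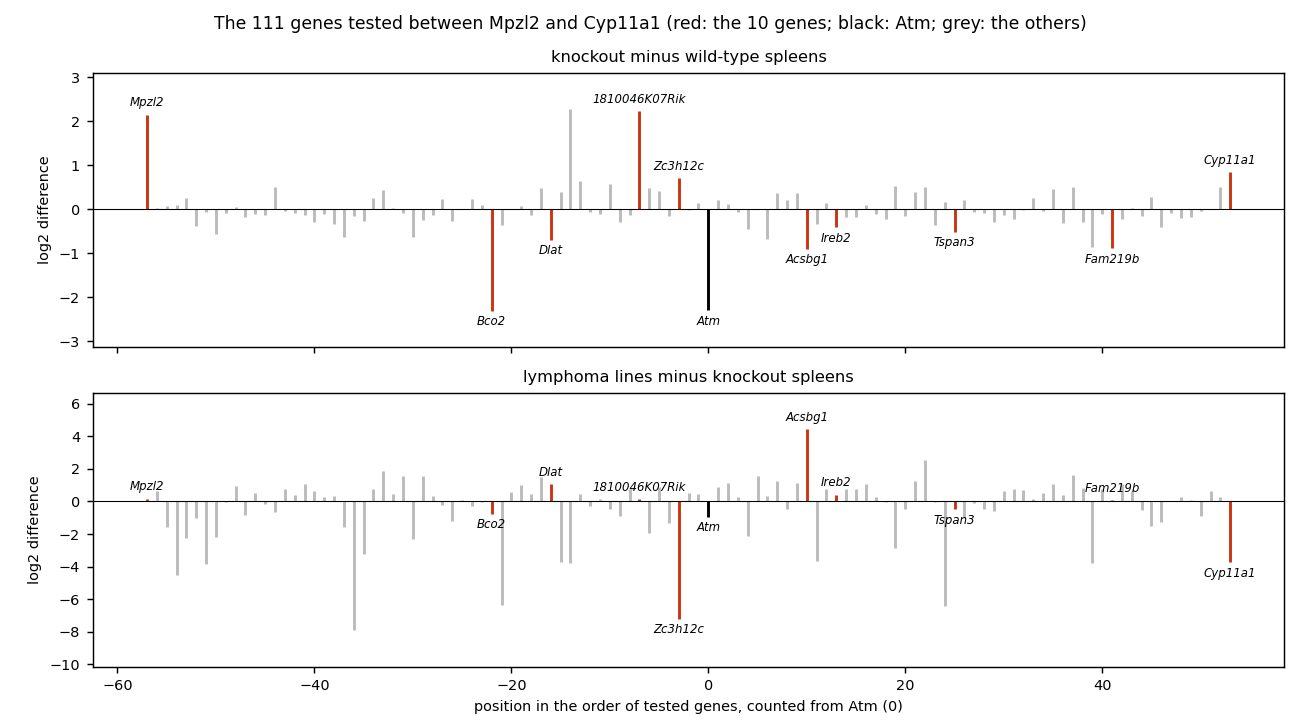
Log2 differences of the 111 tested genes from Mpzl2 to Cyp11a1 in chromosome order (horizontal axis, counted in tested genes from Atm) for knockout minus wild-type spleens above and lines minus knockout spleens below, with listed genes in red, Atm in black and others in grey. In the upper panel, the contrast that chose the listed genes, the tall grey bar is Hspb2 at 2.27. In the lower panel large differences are spread over listed and other genes alike.

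Genes that work with the listed ones were described through lists by function. Of 7 tested genes of the pyruvate dehydrogenase complex and its regulators, 6 were higher in the lines than in knockout spleens and none was lower (0), with a median of 0.81 beside 0.18 over all genes (5 to 7 higher under the other scalings). The largest were the kinases of the complex Pdk3, at 1.43 ± 0.12 (adjusted p = 6.86e-10), and Pdk1, at 1.06 ± 0.31 (adjusted p = 0.00445), and the subunits Pdha1, Pdhb and Pdhx were higher by 0.78 to 0.95. Dlat probe 1 gave 1.06 and probe 2 -0.07 in the same comparison. None of the 7 was called between genotypes (0).

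Of 8 tested iron genes 1 was higher and 4 were lower in the lines (3 and 3 with median centring, 1 and 7 with quantile normalisation). Aco1, the iron regulatory partner of Ireb2, was higher by 0.68 ± 0.08 (adjusted p = 1.37e-07). The iron exporter Slc40a1 was at least 580-fold lower and the erythroid haem enzyme Alas2 at least 1310-fold lower, each above background in 1 of 9 lines. These bounds hold for the processed signal only: with normexp the differences were -6.27 (adjusted p = 4.26e-13) and -7.59 (adjusted p = 1.97e-12). Alas2 is also among the erythroid markers, whose summed level was 6.92 to 9.38 in knockout spleens, and in the lines -3.69 to 1.43, with Epb42 above background in no line (0), and the part of erythroid cells was not tested. Of 7 tested genes of steroid synthesis, the electron carriers of Cyp11a1, Fdx1 (0.87 ± 0.18, adjusted p = 0.000244) and Fdxr (0.56 ± 0.15, adjusted p = 0.0024), were higher. Tspo, a mitochondrial outer membrane protein, was lower by -1.25 ± 0.15 (adjusted p = 1.21e-07), and Hsd3b1 was above background in no line (0) and in 3 of 6 knockout spleens. Star, which delivers cholesterol to Cyp11a1, was the 1 gene of these lists called between genotypes (-0.79 ± 0.15, adjusted p = 0.0153).

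Among 5 tested long-chain acyl-CoA synthetases, Acsl3 (2.32 ± 0.11, adjusted p = 5.65e-14) and Acsl4 (0.72 ± 0.13, adjusted p = 4.37e-05) were higher in the lines. Acsl1 was lower by -2.14 ± 0.27 (adjusted p = 4.97e-07) and Acsl6 was at least 3.67-fold lower, above background in no line (0). The Acsl6 bound holds for the processed signal only, as its call was lost with normexp (-0.19, adjusted p = 0.746). Acsbg1, at 4.46, exceeded each of these synthetases. Of the Regnase genes, Zc3h12a was lower by -1.63 ± 0.21 (adjusted p = 4.89e-07) and Zc3h12d higher by 1.55 ± 0.30 (adjusted p = 0.000102), beside the fall of Zc3h12c. Of 4 tested POU factors and coactivators, Pou2f2 (1.68 ± 0.12, adjusted p = 5.1e-11), Pou2f1 (0.79 ± 0.13, adjusted p = 1.55e-05) and Pou2af1 (0.75 ± 0.11, adjusted p = 3.16e-06) were higher in the lines under each scaling tried. Pou2f3 was above background in 4 of 6 knockout spleens and 1 of 9 lines. Pou2af1 is also the tested gene next to 1810046K07Rik, and it did not spread among the lines as that gene did, with an SD of 0.15 against 1.73.

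Of 8 tetraspanins 2 were higher and 6 lower in the lines, with a median of -0.61 (with median centring 2 and 3, median -0.03). Cd9 was higher by 2.47 ± 0.15 (adjusted p = 3.95e-12), while Tspan33, at -6.35 ± 0.61 (adjusted p = 6.51e-09), and Cd63, at -5.74 ± 0.37 (adjusted p = 8.5e-12), were lowest. In the family of Mpzl2, Mpzl1 was lower by -0.81 ± 0.27 (adjusted p = 0.00987), a call lost with median centring, and Mpzl3, the tested gene next to Mpzl2, was higher by 0.62 ± 0.25 (adjusted p = 0.0309), a call lost with normexp. The carotenoid oxygenases Bco1 and Rpe65 did not pass the filter.

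The gene most like each listed gene was found by the mean absolute difference of their log2 profiles, each centred over the 22 samples. Ireb2 was closest to Xpo1, at 0.088 where its own mean deviation was 0.20, Dlat to Zfp825, at 0.16 of 0.40, Fam219b to Zfp58, at 0.18 of 0.35, and Tspan3 to Ube2h, at 0.25 of 0.43. Bco2 was closest to Gm12185, at 0.46 of 1.24, Zc3h12c to Sspn, at 0.48 of 3.23, Acsbg1 to Stac2, at 0.51 of 2.05, and Cyp11a1 to Lypd3, at 0.52 of 1.68. Mpzl2 was closest to Slc43a3, at 0.55 of 1.09, and 1810046K07Rik to Clstn3, at 0.73 of 1.33. None of these 10 genes is on chromosome 9.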

How the data were processed

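Total RNA of 22 samples was measured on 23 one-colour Agilent arrays. Per the file headers, the deposited files hold scanner signal intensity from Feature Extraction 10.7.1.1, already background-corrected in the processed signal. The table of log2 values deposited for the series was found to be scaled to the 75th percentile and centred on each probe's median (offset at most 0.0446). Control spots (1639 on each array) and spots with outlier flags (1556 over all 23 arrays) were left out. Spots of a probe were averaged, and both arrays of line 8 were averaged. Of 41174 probes, 26690 were given a symbol through the RefSeq accession of the file and the RefSeq table of GRCm38.p6, and 14484 had none. The arrays' header names the build mm9, so no array coordinate was used.

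The log2 processed signal over each array's 75th percentile was tested with limma 3.58.1 (R 4.3.3) and Benjamini-Hochberg adjustment at 0.05, over 13743 genes well above background in at least 6 of 22 samples, each by its brightest probe. The lines were compared in a fit of all 3 groups, and the spleens in a fit with genotype and sex. Probe pairs were compared by exact permutation of samples. A level not above background gives a bound: the dim group's mean takes, per array, the higher of the probe's own value and the lowest signal well above background. Such a bound holds for the processed signal only. Normexp used the median signal and the median background, as the files hold no mean signal. The fits were tested on simulated data. The precision is limited by the number of arrays. Named genes were the 10 listed, their tested neighbours, and members of lists of partners and cell type markers. The members and the lists were chosen with earlier results of these data known. Alternatives were other scalings, normexp, no filter, the mean of probes, slide as a term, the deposited table, other choices for line 8, sex and genotype, and leaving out each sample; the lists under other scalings were added after seeing the data.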

Additional observations from a re-analysis of the deposited data

Results flagged for a closer look

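In 5 of the 48 groups of probe values examined (each probe of the listed genes, in each group), the highest or lowest sample stood apart by Dixon's criterion, and chance flags about 1 in 20 groups. The brighter Mpzl2 probe read -3.79 in wild-type spleen 2, above the next at -4.46, and -4.62 in line 3, below the next line at -2.92. The dimmer Mpzl2 probe read -3.20 in knockout spleen 6, above the next at -6.0. Bco2 read -5.73 in line 7, above the next line at -8.10, although not well above background. The second Dlat probe read -0.41 in line 7, below the next line at 0.10.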

How the results depend on the processing

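Between the lines and knockout spleens 5 listed genes were called, and 5 to 6 when 1 sample was left out. Against wild-type spleens 9 were called, and 9 each time 1 sample was left out. These counts moved with the processing. For knockout spleens they were 6 with median centring, 6 with quantile normalisation, 4 with normexp and 7 with slide as a term. For wild-type spleens they were 8 with median centring, 7 with normexp, and 9 with quantile normalisation or slide as a term. With the main processing 70.4% of all tested genes were called against knockout and 71.3% against wild-type spleens. Signs changed for Tspan3 against knockout spleens with median centring (0.11), for 1810046K07Rik with quantile normalisation (-0.032) and over samples left out (-0.18 to 0.47), for Ireb2 against wild-type spleens with quantile normalisation (-0.12), and with normexp for Bco2 against knockout spleens (0.45) and Cyp11a1 between genotypes (-0.54). Over all genes 525 were called between genotypes, 329 with median centring, 3 with normexp, 254 with slide as a term, 339 with only female wild-type spleens, 1431 with genotype alone and 122 to 778 when 1 sample was left out. The higher genes were 43.4% of these, 50.5% with median centring, 57.5% with slide, 66.7% with normexp and 51.6% with genotype alone. With the mean of all probes, the genotype difference was 1.43 for Mpzl2, -0.28 for Dlat, -0.12 for Ireb2 and -0.21 for Tspan3; for these values the cause was not tested. No paired analysis was possible because replicate numbers were given in accession order and pair no samples; the block used was the slide. Signal near background limits Bco2, the dimmer Mpzl2 probe, and Zc3h12c and Cyp11a1 in the lines.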
